A study of Homo sapiens with 18 samples.

Results

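A set of 37 redox genes was followed through RNA-seq of 3 triple-negative breast cancer lines. The set joins the transcription factor NRF2 (gene NFE2L2) and its inhibitor KEAP1 with glutathione, thioredoxin, peroxiredoxin, iron and carbonyl-reducing genes and with enzymes that supply NADPH, and its members were taken by gene symbol after the Ensembl identifiers of the deposited table had been paired with symbols. Of the 37 genes, 36 were found among the 60676 genes of the table, and SOD2 was not analysed here. MDA-MB-231, MDA-MB-468 and BT20 are established human lines from breast cancers that lack hormone receptors and HER2 amplification. Each line was represented by 3 untreated control libraries and 3 libraries of cells given 20 mM nicotinamide (NAM), the amide form of vitamin B3, for 48 h, 18 libraries in all. The medium was RPMI for BT20 and DMEM elsewhere, and in comparisons with BT20 line and medium cannot be told apart. The study's methods place RNA isolation before and 48 h after NAM. Read so, the controls were collected ahead of NAM, and NAM and 48 h of further culture cannot be told apart either. Nothing says that the replicates were separate cultures, so p-values measure the spread between these libraries, which may be technical.

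NRF2 is held at low levels by KEAP1, which marks it for destruction. Oxidants and electrophiles modify KEAP1, whereupon NRF2 accumulates, pairs with a small MAF protein and binds antioxidant response elements near genes for glutathione synthesis, thioredoxin reductase, quinone and carbonyl reduction, iron storage and NADPH supply. NADPH from the pentose phosphate pathway and malic enzyme is the electron source from which glutathione reductase and thioredoxin reductase keep their partners reduced, and these in turn feed the peroxidases that remove hydrogen peroxide and lipid peroxides. NAM is a precursor of NAD+ and an inhibitor of sirtuins and PARP enzymes.

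The values are FPKM, fragments per kilobase of gene and unit of library depth. They move in steps of whole reads, and the size of those steps gave a depth (the denominator of the FPKM) of 10864143 to 21755168 per library (median 16640628). The whole reads recovered in genes summed to 11538046 to 23082875, above that denominator in every library. The epithelial markers EPCAM, KRT8, KRT18 and KRT19 were at 1 FPKM or more in every library, while CDH1 was so throughout BT20 and MDA-MB-468 only and the mesenchymal marker VIM reached 285 FPKM in MDA-MB-231. Of 15 markers of fibroblasts, blood and vessels, 1 of 6, 0 of 6 and 1 of 3 reached 1 FPKM in at least 3 BT20 libraries, and 1, 1 and 0 did in each of the other lines. The exceptions above a few FPKM were CD14 in MDA-MB-468, where the summed blood markers were 95.3 to 114 FPKM in controls and 34.0 to 39.8 with NAM, and CDH5 in BT20, where the summed vessel markers were 14.4 to 25.1 in controls and 4.25 to 9.01 with NAM. Their part in the results was not tested. Differences between groups were tested by limma on quantile-normalized log2(FPKM + 1), a gene being called at a Benjamini-Hochberg adjusted p under 0.05 over all genes tested. A log2 fold change on this scale understates the change of a low gene.

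The core of the antioxidant response element was looked for as TGACNNNGC, on both strands, in the 300 bases around each annotated start (250 before, 50 after) in RefSeq promoters of GRCh38.p14. Promoters were at hand for 28 of the 36 members, with 37 starts. The motif occurred at 9 of these 37 starts (24.3%), against 4687 of all 35116 promoters in the same table (13.3%). A match is a description of letters and not a binding site. The 7 members with a match upstream of a start are shown because they include both genes that rose most clearly with NAM in BT20 (GCLM and TXNRD1), the gene with the largest ratio of reads between lines (GSTP1) and the inhibitor of the pathway (KEAP1). Each run is written 5′ to 3′ in the direction of the gene, with the motif in capitals and up to 30 bases on either side.
GCLM (chr1:93909431-93909494, minus strand, match from 34 bases before the start): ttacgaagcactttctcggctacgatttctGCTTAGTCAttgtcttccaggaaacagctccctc
TXNRD1, upstream start (chr12:104215650-104215718, plus strand, 99 bases before): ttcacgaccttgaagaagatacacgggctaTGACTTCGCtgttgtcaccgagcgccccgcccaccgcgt
TXNRD1, downstream start (chr12:104286900-104286968, plus strand, 102 bases before): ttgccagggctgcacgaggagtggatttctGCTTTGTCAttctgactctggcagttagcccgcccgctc
GSTP1 (chr11:67583716-67583784, plus strand, 66 bases before): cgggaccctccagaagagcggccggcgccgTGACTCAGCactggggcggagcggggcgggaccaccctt
GPX2 (chr14:64942829-64942897, minus strand, 122 bases before): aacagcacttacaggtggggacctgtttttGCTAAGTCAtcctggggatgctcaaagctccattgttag
ME1 (chr6:83431150-83431218, minus strand, 137 bases before): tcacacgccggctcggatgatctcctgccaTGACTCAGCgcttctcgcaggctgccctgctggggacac
PGD (chr1:10398833-10398901, plus strand, 201 bases before): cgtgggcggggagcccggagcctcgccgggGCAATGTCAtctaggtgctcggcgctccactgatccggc
KEAP1, 1 of 2 starts (chr19:10502772-10502855, minus strand, 54 and 31 bases before): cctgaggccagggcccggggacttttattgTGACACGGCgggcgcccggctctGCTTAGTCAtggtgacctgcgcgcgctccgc
The GSTP1 and ME1 matches have the same 9 letters, TGACTCAGC, and GCLM and the nearer KEAP1 match share GCTTAGTCA, the motif read on the other strand. The downstream TXNRD1 match (GCTTTGTCA), that of GPX2 (GCTAAGTCA) and that of PGD (GCAATGTCA) differ from them within the 3 free positions. A further TXNRD1 match spans the upstream start itself and is not shown.

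The first comparison asks how the redox set differed between untreated cells of the 3 lines. BT20 had the highest control levels of the NADPH enzymes TALDO1 and ME1, of GSS, MGST1 and OSGIN1, and was the only line with AKR1B10 above 1.42 FPKM, while it almost lacked GSTP1. In bulk RNA, fewer cells with a transcript and less of it per cell cannot be told apart. MDA-MB-468 stood out by KEAP1 and by AKR1C1. MDA-MB-231 was the only line with GPX3 above 1 FPKM and had the lowest CAT, GSR, PGD, GCLC, AKR1C2 and AKR1C3 levels. Of the 36 members, 7 were higher and 13 lower in MDA-MB-468 than in BT20, where 26.7% and 28.6% of all 16449 genes tested were called. In MDA-MB-231 against BT20, 7 were higher and 16 lower (30.4% and 28.6% of all genes), and in MDA-MB-231 against MDA-MB-468, 8 were higher and 12 lower (29.3% and 26.5%). The median log2 difference of the members was -0.21, -0.21 and -0.08 in these comparisons, against -0.02, 0.05 and 0.08 over all genes. These gaps moved with the scaling. With equal medians the members' medians were -0.12, -0.05 and 0.08, so that the last changed sign and lay by the 0.08 of all genes, and without quantile normalization they were -0.19, -0.25 and -0.06 against -0.06, -0.13 and -0.06. The members called lower were 44.4% of the 36 in MDA-MB-231 against BT20, above the share of all genes, and those called higher were 19.4%, below it. Without quantile normalization the median of all genes in that comparison was -0.13, and the split of all called genes moved from 4998 higher and 4702 lower to 3947 higher and 5661 lower. Of the 20, 23 and 20 calls, 16, 20 and 17 were kept both with equal medians and without quantile normalization. The calls lost under one or both were GCLC, PRDX1, PRDX6 and TKT in MDA-MB-468 against BT20, PRDX1, PRDX5 and FTL in MDA-MB-231 against BT20, and SRXN1, FTH1 and TKT in MDA-MB-231 against MDA-MB-468. Gained under one or both were AKR1C1 in MDA-MB-231 against BT20, and GPX2, TXNRD1, PRDX6 and AKR1B10 in MDA-MB-231 against MDA-MB-468. GPX2, GPX3 and AKR1C1 entered this test almost wholly through the line in which they were high, so that their calls had to follow.

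**Figure D1:**
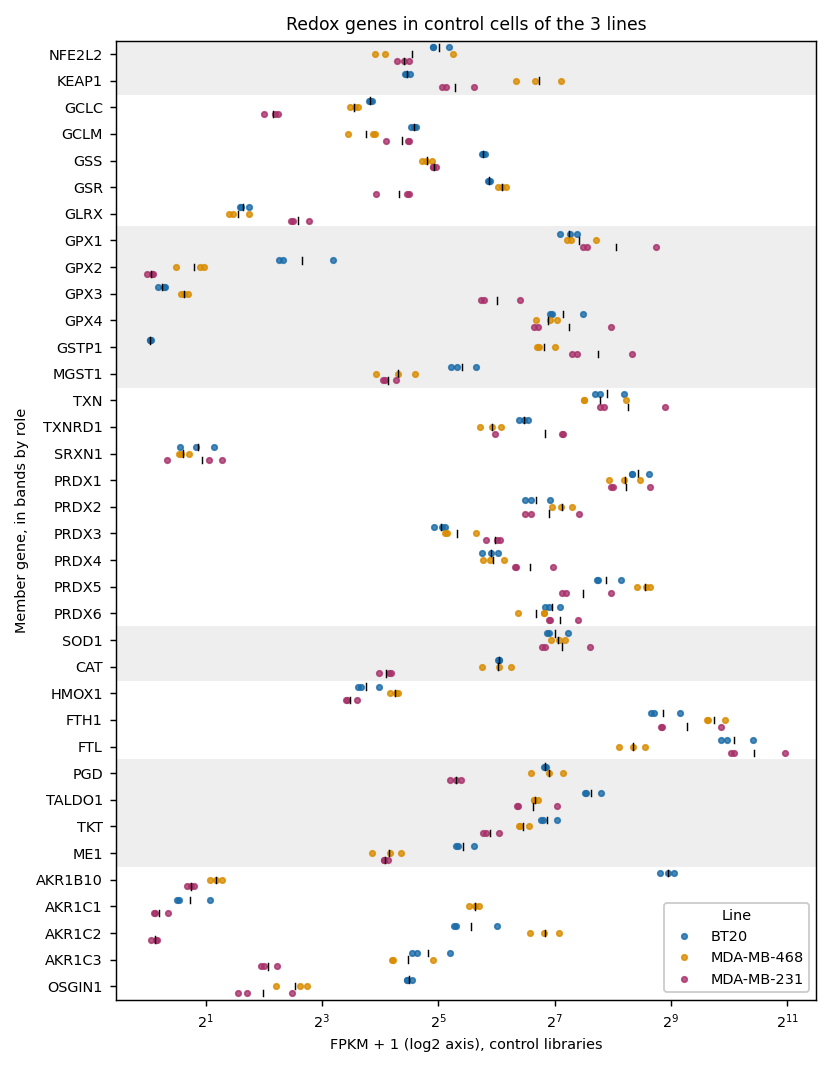
Control levels of the 36 redox genes, as FPKM + 1 on a log2 axis, with 1 point per control library (3 per line, coloured by line), a black tick at each group's mean and grey or white bands for the roles. GSTP1 is near 0 in BT20, GPX3 is high only in MDA-MB-231, and AKR1B10 is at 450 FPKM or more only in BT20.

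Of the regulators, NFE2L2 itself was not called between any lines, with control means of 20.2 ± 1.46 FPKM in MDA-MB-231, 22.4 ± 12.7 in MDA-MB-468 and 31.1 ± 3.51 in BT20 (mean ± SD, n = 3). The wide spread in MDA-MB-468 came from replicate 1, at 37.0 FPKM against 14.1 and 16.0. Without replicate 1 of every group NFE2L2 was called in all 3 comparisons, with log2 differences from BT20 of -0.50 in MDA-MB-231 (adjusted p = 0.00421) and -0.91 in MDA-MB-468 (0.000302), and 0.41 between these lines (0.00929), on 2 libraries each. Most genes passed in these fits, where 10328, 10061 and 10340 of all 14042 tested were called, in the same order. KEAP1, the adaptor that delivers NRF2 to the ubiquitin ligase, was 20.6, 21.8 and 20.9 FPKM in the 3 BT20 controls, 48.1, 32.4 and 34.3 in MDA-MB-231, and 80.0, 137 and 99.9 in MDA-MB-468. The 3 groups did not overlap. MDA-MB-468 exceeded BT20 by 2.23 ± 0.192 on the log2 scale (± SE, adjusted p = 1.14e-05) and MDA-MB-231 lay between them, 0.81 above BT20 (adjusted p = 0.00523) and with a log2 difference of -1.42 from MDA-MB-468 (adjusted p = 0.0002).

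Glutathione is made by glutamate-cysteine ligase, with its catalytic subunit GCLC and its modifier GCLM, and by glutathione synthetase (GSS), and its oxidized form is recycled by glutathione reductase (GSR). GCLC was lower in MDA-MB-231 (3.44 ± 0.376 FPKM) than in BT20 (13.2 ± 0.301) and MDA-MB-468 (10.8 ± 0.569). GSR was also lowest there, with 14.3, 21.6 and 21.0 FPKM in the MDA-MB-231 controls against 56.7 to 58.4 in BT20 and 64.3 to 70.3 in MDA-MB-468. BT20 and MDA-MB-468 did not pass the test for GSR (adjusted p = 0.42). GCLM was lowest in MDA-MB-468 (12.5 ± 2.32, against 22.9 ± 0.717 in BT20 and 19.7 ± 3.06 in MDA-MB-231), and the latter pair did not pass the test. GSS was highest in BT20 (53.6 ± 0.924 against 26.9 ± 1.76 and 29.5 ± 0.745), and the glutaredoxin GLRX was highest in MDA-MB-231 (5.02 ± 0.719 against 2.14 ± 0.193 and 1.94 ± 0.38).

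The peroxidases and transferases held the widest contrasts. GSTP1, the pi-class glutathione transferase, had 1 read in each of the 3 BT20 controls (0.0309 to 0.0405 FPKM). It had 103, 127 and 105 FPKM in MDA-MB-468 (2130 to 3276 reads) and 322, 156 and 166 FPKM in MDA-MB-231 (5188 to 6418 reads). At equal depth, the summed control reads were 3190 times those of BT20 in MDA-MB-468 (exact 95% interval 1090 to 15500) and 5650 times in MDA-MB-231 (1930 to 27400), where the interval covers counting error only. GPX3, the extracellular glutathione peroxidase, had 84.3, 52.0 and 54.2 FPKM in MDA-MB-231 against 0.138 to 0.226 in BT20 and 0.497 to 0.613 in MDA-MB-468. The ratio of its reads was 319 (222 to 477) and 109 (86.9 to 138). GPX2, the gastrointestinal form, ran the other way, with 8.10, 3.82 and 4.02 FPKM in BT20, 0.398 to 0.957 in MDA-MB-468 and 3 reads in all in MDA-MB-231, and its read ratio of BT20 to MDA-MB-231 was 126 (42.7 to 613). GPX1 and the lipid peroxide reductase GPX4 were not called between any lines, with means from 117 to 264 FPKM. MGST1, a membrane-bound transferase, was higher in BT20 (41.4 ± 6.75) than in MDA-MB-231 (16.6 ± 1.43) and MDA-MB-468 (18.8 ± 4.52).

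The thioredoxin and peroxiredoxin genes differed less, by at most 1.21 on the log2 scale. TXN, TXNRD1 and PRDX2 were not called between any lines, and TXN means ran from 220 to 307 FPKM. TXNRD1 was 0.84 higher in MDA-MB-231 than in MDA-MB-468 and just missed the threshold (adjusted p = 0.051). It passed without quantile normalization (0.0332) and with equal medians (0.00782). The mitochondrial PRDX3 and the endoplasmic reticulum form PRDX4 were highest in MDA-MB-231 (61.7 ± 5.53 and 94.2 ± 26.2 FPKM), above both other lines. PRDX1 differed from BT20 by -0.45 in MDA-MB-231 and -0.38 in MDA-MB-468 on the log2 scale, PRDX6 by -0.45 in MDA-MB-468, and SRXN1, which repairs overoxidized peroxiredoxins and was near 1 FPKM, was 0.64 higher in MDA-MB-231 than in MDA-MB-468. These 4 calls were lost with equal medians (adjusted p from 0.117 to 0.923) and without quantile normalization (0.232 to 0.402). PRDX5 ran from 374 ± 28.6 FPKM in MDA-MB-468 over 236 ± 40.5 in BT20 to 178 ± 62.2 in MDA-MB-231, and all 3 comparisons were called, but that of MDA-MB-231 with BT20 was lost without quantile normalization (adjusted p = 0.126) and with equal medians (0.454). Among the scavengers outside these families, SOD1, the cytosolic superoxide dismutase, had means of 128 to 139 FPKM and was not called. Catalase (CAT), the peroxisomal enzyme that splits hydrogen peroxide, was 14.8, 17.2 and 16.7 FPKM in MDA-MB-231 and 52.9 to 75.2 in the other lines, a log2 difference of -1.93 ± 0.142 from BT20 (adjusted p = 2.88e-06).

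The ferritin light chain FTL had 1982, 1047 and 1089 FPKM in MDA-MB-231, 926 to 1353 in BT20 and 276 to 374 in MDA-MB-468, where it was lowest (log2 difference of MDA-MB-231 from MDA-MB-468 2.22 ± 0.128, adjusted p = 5.81e-07). The heavy chain FTH1 was highest in MDA-MB-468 (852 ± 107 FPKM against 463 ± 90.8 in BT20 and 616 ± 273 in MDA-MB-231), although its difference from MDA-MB-231 did not pass without quantile normalization (adjusted p = 0.126) or with equal medians (0.287). Both have processed copies in the genome, and the handling of reads that match several places is not given in the sources used here. HMOX1, the haem-degrading enzyme, was also highest in MDA-MB-468 (18.1 ± 0.929 against 12.6 ± 1.98 and 10.2 ± 0.844).

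All 4 NADPH enzymes were lower in MDA-MB-231 than in BT20. PGD, 6-phosphogluconate dehydrogenase, was 35.7, 38.6 and 40.8 FPKM in MDA-MB-231 against 112 to 115 in BT20 and 95.9 to 141 in MDA-MB-468. For TALDO1 and TKT, the transaldolase and transketolase of the non-oxidative pentose phosphate steps, BT20 had 196 ± 21.5 and 116 ± 12.2 FPKM, MDA-MB-468 had 101 ± 3.08 and 86.4 ± 5.78, and MDA-MB-231 had 97.7 ± 28.6 and 58.1 ± 6.32. Malic enzyme ME1 was 42.0 ± 5.04 in BT20 and 16.7 ± 3.08 and 16.0 ± 0.492 in the others.

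AKR1B10 and AKR1C1, of the aldo-keto reductases, were each high in 1 line only. AKR1B10, which reduces retinal and other carbonyls, had 531, 450 and 496 FPKM in the BT20 controls, 1.11 to 1.42 in MDA-MB-468 and 0.598 to 0.743 in MDA-MB-231, a read ratio of 380 (312 to 467) over the former and 710 (551 to 931) over the latter. AKR1C1, AKR1C2 and AKR1C3, steroid and carbonyl reductases, lie side by side on chromosome 10 (GRCh38, starting at 4963253, 4987775 and 5035354). AKR1C1 had 48.5, 45.3 and 51.2 FPKM in MDA-MB-468 and at most 1.11 in the other lines (read ratio over MDA-MB-231 380, 292 to 504). AKR1C2 had 134, 94.9 and 112 FPKM in MDA-MB-468, 63.3, 38.6 and 37.7 in BT20, and 0.0491 to 0.114 in MDA-MB-231, and the read ratio of MDA-MB-468 to MDA-MB-231 was 1270 (882 to 1920). AKR1C3 was 22.4 to 36.0 FPKM in BT20, 17.5 to 29.0 in MDA-MB-468 and 2.88 to 3.68 in MDA-MB-231. The 3 genes are similar in sequence, so how the reads were divided among them is uncertain, and BT20 with AKR1C2 and little AKR1C1 should be read with that limit. OSGIN1, a growth inhibitor induced by oxidative stress, had 21.0, 22.3 and 21.1 FPKM in BT20, 3.64 to 5.68 in MDA-MB-468 and 1.93 to 4.61 in MDA-MB-231 (log2 difference of the last from BT20 -2.38 ± 0.268, adjusted p = 5.19e-05).

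The second comparison asks what NAM changed within each line. In BT20, GCLM, TXNRD1 and FTH1 rose and no member fell at the threshold. In MDA-MB-468, AKR1C1 fell and no member rose. In MDA-MB-231, CAT rose and no member fell. In BT20, 8.16% of all genes tested were called higher and 8.51% lower (33 of the 36 members were tested). The shares were 3.56% and 5.43% for MDA-MB-468 (33 tested) and 0.829% and 1.09% for MDA-MB-231 (32 tested). The members' median log2 fold change was 0.14, 0.08 and 0.23, against 0.02, 0.02 and -0.01 over all genes, and 20 of 33, 17 of 33 and 27 of 32 members lay above 0. The untested members were under 1 FPKM in too many libraries, namely GPX3, GSTP1 and AKR1C1 in BT20, GPX2, GPX3 and SRXN1 in MDA-MB-468, and GPX2, AKR1B10, AKR1C1 and AKR1C2 in MDA-MB-231. At an unadjusted p under 0.05, 9 members were higher and 0 lower in MDA-MB-231, and 6 were higher and 4 lower in each of BT20 and MDA-MB-468. Over all genes, 1411 were higher and 1308 lower of 13869 in MDA-MB-231 at that threshold. The counts were 2649 and 2432 of 14965 in BT20, and 1705 and 1797 of 14752 in MDA-MB-468. By limma-voom on the recovered reads the counts of 0 (lower in BT20 and MDA-MB-231, higher in MDA-MB-468) were 0 as well.

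In both DMEM lines, libraries that shared a replicate number deviated together from their group means, although only replicate 1 was clearly set off and replicates 2 and 3 were not told apart by number, and with the replicate number as a block more members passed. With the block, 7 members were higher and 6 lower in MDA-MB-468 (15.4% and 14.3% of all genes), and 13 were higher and 0 lower in MDA-MB-231 (12.6% and 11.4%). Members above the threshold in MDA-MB-231 were thus 40.6% of those tested. Without replicate 1 of either group, the MDA-MB-231 counts were 14 higher and 0 lower, and those of MDA-MB-468 were 2 higher and 3 lower. Over all genes the same fits called 1871 higher and 1972 lower of 13144 in MDA-MB-231. In MDA-MB-468 they called 1529 and 1568 of 13772. The members of these lines called with the block are named below as such. In BT20 the numbers did not pair the libraries.

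**Figure D2:**
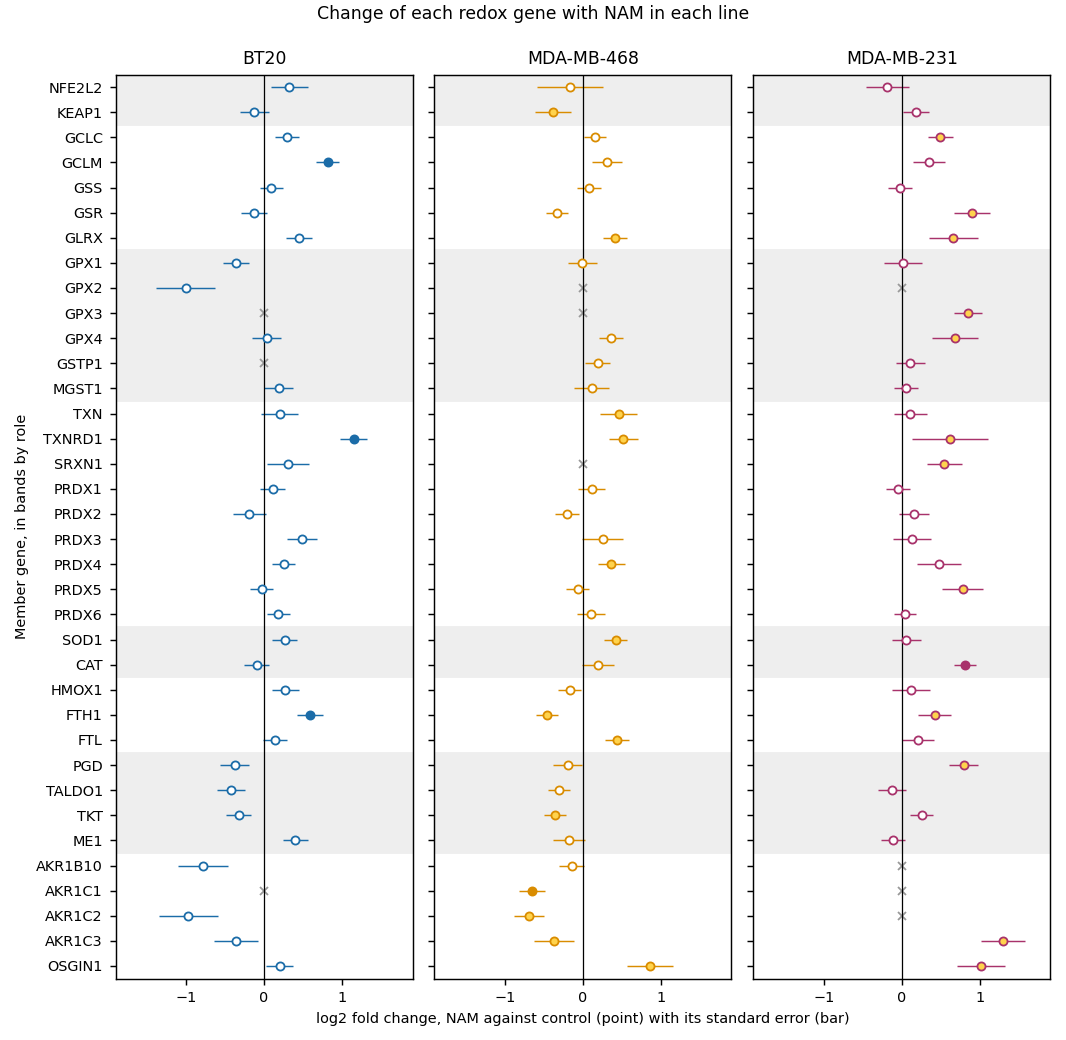
Change of each redox gene with NAM in the 3 lines, as log2 fold change of NAM against control (point) with its standard error (bar). Filled points in the line's colour were called, yellow points were called only with the replicate block (both DMEM lines), open points were not called and grey crosses were not tested. The filled points are GCLM, TXNRD1 and FTH1 in BT20, AKR1C1 in MDA-MB-468 and CAT in MDA-MB-231.

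In BT20, GCLM, the modifier subunit that raises the efficiency of glutathione synthesis, went from 23.6, 22.9 and 22.1 FPKM in controls to 41.5, 36.7 and 40.5 with NAM. The groups lay well apart, and the log2 fold change was 0.82 ± 0.145 (adjusted p = 0.00911). TXNRD1, the cytosolic thioredoxin reductase, went from 82.8, 92.2 and 88.3 FPKM to 184, 172 and 208 (log2 fold change 1.15 ± 0.173, adjusted p = 0.00577), again without overlap. FTH1 went from 568, 404 and 419 FPKM to 727, 641 and 541, so that the lowest treated library was under the highest control, and its log2 fold change was 0.59 ± 0.166 (adjusted p = 0.0428). TXNRD1 kept its call with any 1 library left out (adjusted p up to 0.0293) and under all scalings. GCLM lost it without control replicate 2 or 3 (up to 0.0571), and FTH1 lost it without any of the 6 (0.0551 to 0.195) and also without quantile normalization (0.125), with a pseudocount of 0.1 (0.0657), without a filter (0.0781), with equal medians (0.166) and by limma-voom (0.0828).

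The remaining BT20 members did not pass. GCLC had 16.4 ± 1.85 FPKM with NAM against 13.2 ± 0.301 in controls (log2 fold change 0.29), and the partner of TXNRD1, TXN, had 262 ± 73.5 against 239 ± 45.5. All 3 of PGD, TALDO1 and TKT had negative log2 fold changes (-0.37, -0.42 and -0.33, adjusted p from 0.132 to 0.183), as had AKR1B10 (492 ± 40.6 to 302 ± 157 FPKM), AKR1C2 (46.5 ± 14.5 to 24.6 ± 14.3) and GPX2 (5.31 ± 2.41 to 2.27 ± 1.49). For these last 3 the treated BT20 libraries were far apart. AKR1B10 had 290, 464 and 152 FPKM, AKR1C2 had 21.6, 40.1 and 11.9, and GPX2 had 2.47, 3.65 and 0.689, with replicate 2 highest and replicate 3 lowest each time. NFE2L2 was 25.2, 46.3 and 47.2 FPKM with NAM against 29.1 to 35.2 in controls, and its log2 fold change of 0.32 became 0.68 without replicate 1 of both groups (adjusted p = 0.0296). KEAP1 had a log2 fold change of -0.12, and HMOX1 had 15.3 ± 2.28 against 12.6 ± 1.98.

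In MDA-MB-468, AKR1C1 fell from 48.5, 45.3 and 51.2 FPKM to 33.9, 28.6 and 28.4, without overlap (log2 fold change -0.66 ± 0.165, adjusted p = 0.0446, 0.00857 with the block). The call was lost without any 1 library other than NAM replicate 1 (adjusted p up to 0.228), with a pseudocount of 0.1 (0.0654) and without a filter (0.0567). AKR1C2 went from 134, 94.9 and 112 to 80.9, 64.3 and 70.1 FPKM, also without overlap (-0.69, adjusted p = 0.0649, 0.00509 with the block). With the block, KEAP1 (-0.39), FTH1 (-0.46), TKT (-0.35) and AKR1C3 (-0.37) were lower as well. FTH1 went from 975, 782 and 797 FPKM to 832, 704 and 684, each treated library under the control of its own number.

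The 7 MDA-MB-468 members that were higher with the block were OSGIN1 (log2 fold change 0.85), TXNRD1 (0.52), TXN (0.46), FTL (0.43), SOD1 (0.42), GLRX (0.41) and PRDX4 (0.36). OSGIN1 went from 3.64, 5.68 and 5.16 FPKM to 6.17, 12.6 and 11.7, a rise in each numbered pair, with an adjusted p of 0.12 without the block and 0.00321 with it. TXNRD1 went from 66.4, 51.9 and 59.8 FPKM to 101, 78.5 and 78.1. FTL went from 374, 276 and 323 to 465, 426 and 465, so that the light chain was higher and the heavy chain lower. These values did not pass without the block (adjusted p from 0.12 to 0.293).

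In MDA-MB-231, CAT went from 14.8, 17.2 and 16.7 FPKM to 31.6, 28.7 and 28.9 (log2 fold change 0.81 ± 0.142, adjusted p = 0.0477, 0.0124 with the block). The groups did not overlap, and the call was lost without any 1 of the 6 libraries (adjusted p 0.0574 to 0.314), and also without quantile normalization (0.0552), with equal medians (0.0955), with a pseudocount of 0.1 (0.062) and by limma-voom (0.053). Of all genes tested in this line, 0 were called without control replicate 2, control replicate 3, NAM replicate 2 or NAM replicate 3. Even with NAM, CAT stayed under the 52.9 FPKM of the lowest control library of the other lines.

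In MDA-MB-231, 12 further members were higher with the block. GSR, which regenerates glutathione at the expense of NADPH, went from 14.3, 21.6 and 21.0 FPKM to 31.2, 35.2 and 42.2 (log2 fold change 0.90, adjusted p = 0.099, 0.0116 with the block). GPX3 went from 84.3, 52.0 and 54.2 to 144, 92.3 and 102 (0.84, 0.071 and 0.0171), and PGD from 35.7, 38.6 and 40.8 to 64.5, 63.5 and 70.9 (0.79, 0.0844 and 0.0123). For GSR, PGD and GPX3 alike every treated library was above every control. AKR1C3 had the largest log2 fold change of the tested members in this line, 1.29 (adjusted p = 0.0736, 0.00997 with the block), from 3.68, 2.88 and 3.02 FPKM to 14.5, 8.24 and 8.72. OSGIN1 went from 4.61, 1.93 and 2.30 to 6.82, 6.39 and 8.42 (1.01, 0.142 and 0.0254). The others were PRDX5 (0.78), GPX4 (0.68), GLRX (0.66), TXNRD1 (0.62), SRXN1 (0.54), GCLC (0.49) and FTH1 (0.42). TXNRD1 went from 61.7, 141 and 138 FPKM to 125, 183 and 190, and PRDX5, a peroxiredoxin of several organelles, from 250, 139 and 145 to 644, 191 and 227.

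Replicate 1 stood apart in MDA-MB-231, in both groups, in a way that touched the members directly. On the log2(FPKM + 1) scale it differed from the mean of replicates 2 and 3 by more than 0.5 upwards in 15 of 31 expressed members of the controls and downwards in 2, and in 15 and 4 of 32 with NAM. In controls GPX1 was 427 FPKM in replicate 1 against 178 and 187, FTL 1982 against 1047 and 1089, and TXNRD1 61.7 against 141 and 138. The difference ran with gene length across the members, the short ones being high in replicate 1 (Spearman rho -0.69 in controls and -0.70 with NAM, over 31 and 32 genes of the same libraries). Over all expressed genes rho was -0.35 and -0.42. The BT20 controls had a like trend, with rho -0.44 over 32 members and -0.32 over all expressed genes, and the other 3 groups had -0.06 to 0.22 over the members and -0.04 to 0.17 over all. The part of RNA length or quality in the MDA-MB-231 results was not tested. Leaving out replicate 1 of both groups gave log2 fold changes of 0.71 for CAT, 0.82 for GSR, 0.79 for PGD, 0.92 for GPX3 and 1.13 for AKR1C3, with adjusted p from 0.00396 to 0.00846 on 2 libraries against 2.

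**Figure D3:**
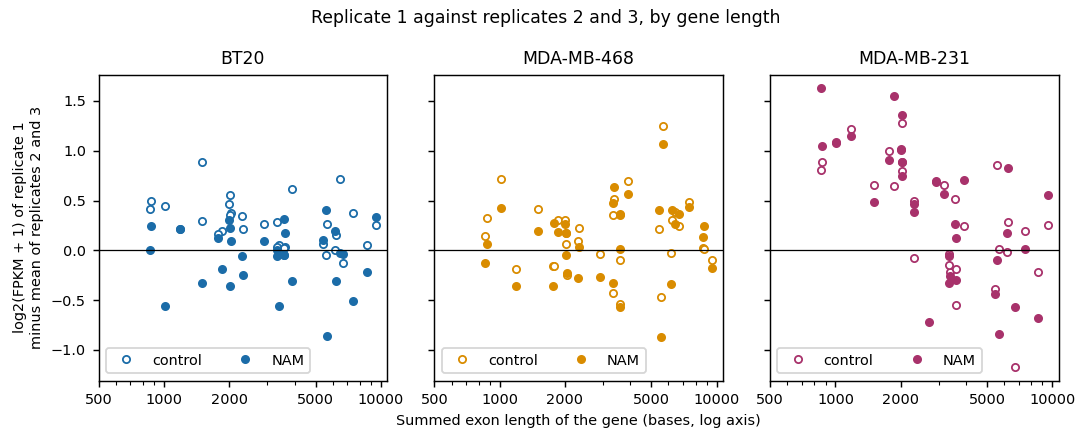
Difference of replicate 1 from the mean of replicates 2 and 3, on the log2(FPKM + 1) scale, against the summed exon length of each expressed redox gene in bases (log axis), with open points for controls and filled points for NAM. In MDA-MB-231 the points fall from left to right (rho -0.69 and -0.70) and those of the BT20 controls do so less steeply (-0.44), while MDA-MB-468 shows no such slope (0.03 and 0.22).

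The third comparison asks whether the lines answered NAM differently, by the interaction of line and treatment in a joint fit to the 18 libraries. Of the 36 members, 7 passed, namely GSR, GPX3, FTH1, PGD, AKR1C3, CAT and TKT, against 9.36% of all 17784 genes tested. With the replicate block 12 passed (22.0% of all genes), the same 7 with GCLM, TXNRD1, PRDX5, ME1 and AKR1C1. That fit also blocked BT20 by replicate number, although the numbers did not pair the libraries there. Without replicate 1 of every group 12 passed, beside 4443 of all 16927 genes tested. For GSR, PGD, AKR1C3, CAT and TKT the joint fit gave MDA-MB-231 the highest log2 fold change of the 3 lines. Neither difference of TKT from the other lines passed, nor did that of CAT from MDA-MB-468. GPX3 entered the test through MDA-MB-231 alone, so its ranking of the lines was fixed in advance. Fold changes below are those of each line's own fit and differences those of the joint fit, whose normalization is not the same.

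**Figure D4:**
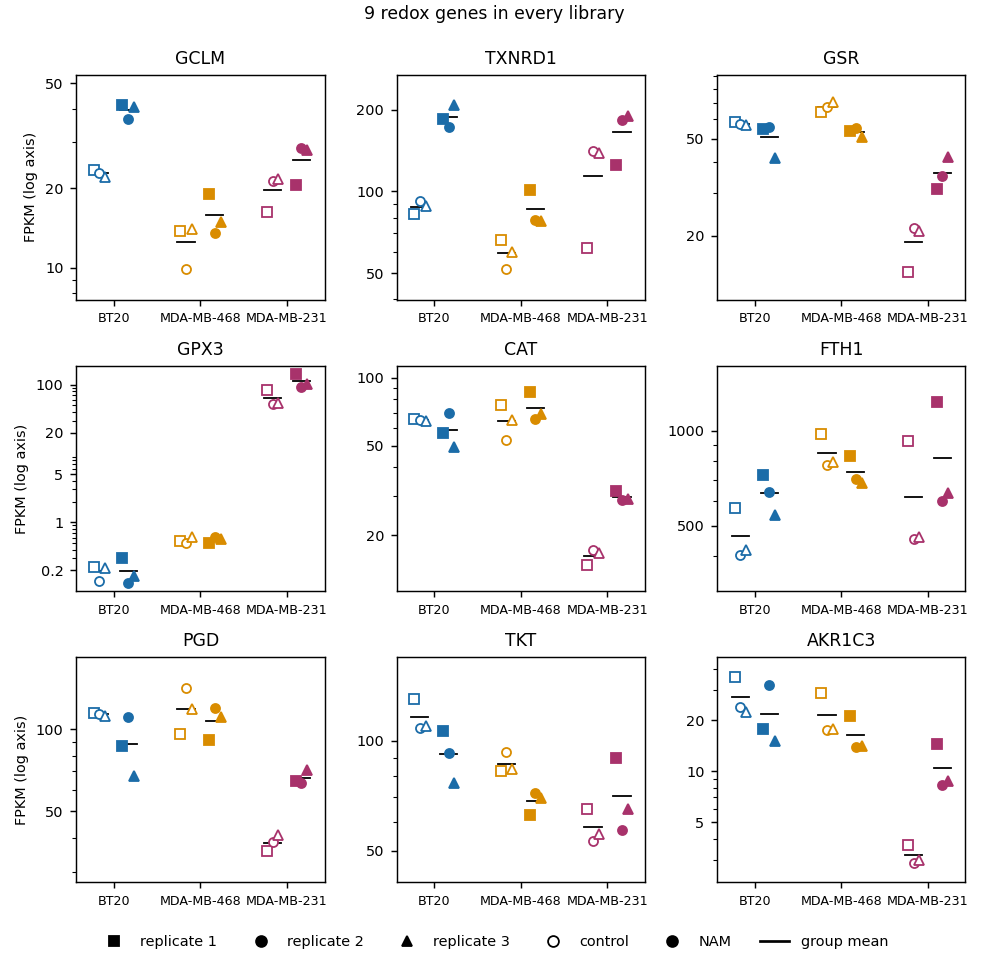
FPKM of 9 redox genes in every library on log axes, by line, with open symbols for controls, filled symbols for NAM, the symbol shape for the replicate number and a bar at each group mean. GSR, PGD, CAT and AKR1C3 are higher with NAM in all 3 MDA-MB-231 libraries than in any MDA-MB-231 control, while GCLM and TXNRD1 show the same in BT20.

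GSR gave the clearest difference (adjusted p = 0.00608 for the interaction). Its log2 fold change was 0.90 in MDA-MB-231, -0.13 in BT20 and -0.33 in MDA-MB-468. MDA-MB-231 exceeded BT20 by 1.01 ± 0.234 (adjusted p = 0.0191, up to 0.0582 and lost on leaving out 4 of the 18 libraries) and MDA-MB-468 by 1.20 ± 0.234 (0.00531, kept in all 18). In MDA-MB-468 GSR went from 64.3, 67.1 and 70.3 FPKM to 53.7, 55.5 and 50.7. The control gap between the lines thus narrowed, from 67.2 ± 3.03 against 19.0 ± 4.07 FPKM to 53.3 ± 2.43 against 36.2 ± 5.61. PGD (0.0148) had the same shape, with 0.79 in MDA-MB-231 against -0.37 and -0.19, and it differed by 1.19 from BT20 (0.015, kept in all 18) and by 0.99 from MDA-MB-468 (0.0394, lost on leaving out 12, up to 0.122). AKR1C3 (0.034) had 1.29 against -0.36 and -0.37, with differences of 1.59 and 1.58 (0.0433 and 0.0471, lost on leaving out 13 and 12, up to 0.127). CAT (0.041) exceeded BT20 by 0.89 (0.0295, lost on leaving out 7, up to 0.0861), while its difference of 0.61 from MDA-MB-468 did not pass (0.168).

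FTH1 was called higher in BT20 and, with the block, lower in MDA-MB-468. Its interaction (adjusted p = 0.00847) lay with MDA-MB-468, which differed by -1.07 from BT20 (0.0118) and from which MDA-MB-231 differed by 1.07 (0.0123), while the log2 difference of MDA-MB-231 from BT20 was -0.0052 (0.997). GPX3 (0.00742) was below 0.7 FPKM in BT20 and MDA-MB-468 with 8 to 34 reads per library, where a change on this scale could hardly show. Its interaction thus restates its rise in MDA-MB-231, the 1 line that expresses it, and compares no responses. TKT (0.0468) had 0.26 in MDA-MB-231 and -0.33 and -0.35 in the others, and neither pairwise difference passed (0.0564 and 0.0658). GSR, GPX3, FTH1 and PGD kept the call with any 1 of the 18 libraries left out (adjusted p up to 0.0485).

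The calls of FTH1, GPX3 and TKT were lost without quantile normalization. Their adjusted p were then 0.506, 0.0637 and 0.176, and by limma-voom on the recovered reads they were 0.488, 0.494 and 0.197. GSR, AKR1C3, CAT and PGD passed under both (0.00364 to 0.0469). Centring on equal medians kept GSR (0.00521) and AKR1C3 (0.0336), with PGD at 0.0533 and CAT at 0.0577, and a pseudocount of 0.1 lost CAT (0.0685), GPX3 (0.0782) and TKT (0.106). AKR1C3 was lost without a filter on low values (0.0697). CAT lost its call on leaving out each of 14 libraries, all but BT20 NAM replicate 2, MDA-MB-468 control replicates 1 and 2 and MDA-MB-468 NAM replicate 1 (adjusted p up to 0.0921), TKT on leaving out each of 16, all but BT20 NAM replicate 1 and MDA-MB-231 NAM replicate 2 (up to 0.123), and AKR1C3 on leaving out each of 9. These were BT20 control replicates 1 and 2, BT20 NAM replicate 3, MDA-MB-468 NAM replicates 2 and 3, MDA-MB-231 control replicates 2 and 3 and MDA-MB-231 NAM replicates 1 and 3 (up to 0.0957).

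GCLM and TXNRD1, the members that rose in BT20, did not pass the interaction without the block (0.267 and 0.533). TXNRD1 had positive log2 fold changes in all 3 lines, 1.15, 0.52 and 0.62, and GCLM had 0.82, 0.30 and 0.34. GLRX was positive in all 3 as well (0.44, 0.41 and 0.66), and with the block TXNRD1 and GLRX were called in both paired lines. Other members, among them FTL, TXN, OSGIN1, GCLC and PRDX4, also had a higher mean FPKM with NAM in all 3 lines. Of the 7 members with the motif upstream, GCLM and TXNRD1 rose in BT20. With the block, TXNRD1 was called higher in both paired lines and PGD in MDA-MB-231 alone. KEAP1 was then called lower in MDA-MB-468. KEAP1, ME1, GSTP1 and GPX2 were called higher with NAM in no line where they were tested. For GSTP1 this leaves out BT20, and GPX2 was tested with NAM in BT20 only. CAT and AKR1C3, without a match, were called higher with the block in MDA-MB-231 as well. Whether calls were more frequent among members with the motif was not tested.

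Beyond the members, 87 other genes of the same pathways were followed in 5 lists, of which 75, 74 and 81 were tested with NAM, in the order BT20, MDA-MB-468, MDA-MB-231 kept below. NAM gave 9 higher and 6 lower (12% and 8.0% of those tested, beside 8.16% and 8.51% of all genes), 3 and 1 (4.05% and 1.35%, beside 3.56% and 5.43%), and 5 and 0 (6.17% higher, beside 0.829%), and with the block 20 and 11 for MDA-MB-231 and 16 and 6 for MDA-MB-468. Their median log2 fold changes were -0.08, 0.13 and 0.04, against 0.02, 0.02 and -0.01 over all genes. The 26 other genes of the NRF2 system had 3 higher and 2 lower, 1 and 0, and 1 and 0, and the 24 other glutathione enzymes had 2 and 2, 2 and 0, and 0 and 0. The 16 other thioredoxin system genes had 4 and 1, 0 and 0, and 1 and 0, the 13 other NADPH enzymes 0 and 1, 0 and 0, and 2 and 0, and the 8 other haem and iron genes 0 and 0, 0 and 1, and 1 and 0. Of 83 tested, 15 passed the interaction (18.1%, beside 9.36% of all genes). Between controls, 15 of the 26 NRF2 system genes were lower than BT20 in each of the other lines (57.7%, beside 28.6% of all genes in both), with 7 higher in MDA-MB-231 and 4 in MDA-MB-468. Several of these genes were drawn in the study's own networks from these samples, as were GCLC, GCLM, GSR, PGD and GPX2 among the members, so that their directions are not independent evidence.

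Of these other genes, CHAC1, SLC7A11 and SESN2 had the largest rises in BT20 and OPLAH, CBR3 and IDH2 the largest falls. CHAC1, which degrades glutathione, had 4.58 ± 0.905 FPKM in controls and 27.8 ± 1.55 with NAM (log2 fold change 2.37 ± 0.171, adjusted p = 0.000601). SLC7A11, the cystine importer that feeds glutathione synthesis, had 2.77 ± 0.36 and 12.4 ± 1.94 (1.80 ± 0.163, 0.00137). SESN2, a stress-induced sestrin, went from 6.0 ± 0.469 to 20.1 ± 5.22 FPKM (1.55 ± 0.203, 0.00349). OPLAH, the 5-oxoprolinase that returns glutamate to the glutathione cycle, fell from 4.58 ± 0.883 to 1.26 ± 0.388 (-1.32, 0.00427), and the carbonyl reductase CBR3 from 81.2 ± 11.1 to 36.6 ± 10.7 (-1.10, 0.0114). These 5 kept their calls with any library left out (up to 0.0498). IDH2, the mitochondrial NADP+-dependent isocitrate dehydrogenase, fell from 147 ± 3.1 FPKM to a mean of 73.6 (adjusted p = 0.013, 0.0577 without control replicate 2).

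In MDA-MB-468 the microsomal transferase MGST3 rose from 6.89 ± 1.04 to 15.6 ± 2.33 FPKM (log2 fold change 1.05, adjusted p = 0.00976), the aldose reductase AKR1B1 from 23.9 ± 2.26 to 42.9 ± 2.97 (0.81, 0.0124) and CHAC1 from 22.6 ± 3.12 to 39.0 ± 8.02 (0.74, 0.0474). The iron transporter SLC11A2 fell from 16.4 ± 0.346 to 10.3 ± 0.279 (-0.65, 0.0236). These calls were lost without control replicate 3 or NAM replicate 3, those of AKR1B1, CHAC1 and SLC11A2 also without NAM replicate 2, and those of CHAC1 and SLC11A2 also without control replicate 2 (up to 0.222).

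In MDA-MB-231, TXNIP, which binds and inhibits thioredoxin, rose from 25.3 ± 11.5 to 155 ± 46.5 FPKM (log2 fold change 2.60, adjusted p = 0.028, 0.0109 with the block). It rose in BT20 as well, from 48.2 ± 14.9 to 138 ± 34.0 (1.54, adjusted p = 0.00944, and 0.0549 without NAM replicate 3). IDH1, the cytosolic NADP+-dependent isocitrate dehydrogenase, rose to 29.4 ± 1.91 FPKM (1.22, 0.0377 and 0.0111). The iron exporter SLC40A1 rose from 0.441 ± 0.119 to 2.45 ± 0.539 FPKM (1.11, 0.0258), so that it entered the test only through its treated libraries. SLC40A1 lost its call without any 1 control, and without any 1 treated library it fell under the filter and was not tested. TXNIP lost its call without any library but control replicate 1, and IDH1 without any of the 6. The adjusted p of these genes ran up to 0.254. As given above for CAT, no gene at all was called in this line on leaving out replicate 2 or replicate 3 of either group.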

How the data were processed

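The deposited table holds, per the labels and the study's methods, FPKM for Ensembl genes in 18 libraries (Illumina TruSeq). According to the submitters' processing notes the authors used cutadapt 2.8, TopHat2 2.1.1, HTSeq 0.11.3 and GRCh38.p13. Strand setting and treatment of reads with several matches are not given in the sources used here. Of 60676 identifiers, 60357 were paired with symbols by GENCODE v44. Whole reads were recovered from the FPKM steps (98.1% of values above 0 within 0.01 reads). Genes at 1 FPKM or more in at least 3 libraries of a fit were kept, log2(FPKM + 1) was quantile-normalized, and the limma package (3.58.1, R 4.3.3) compared NAM with control in each line, the 9 controls between lines, and the line-by-treatment interaction over 18 libraries, with Benjamini-Hochberg adjustment over all genes. Means and SD are of deposited FPKM. With 3 libraries against 3 the smallest exact p of a single value is 0.1, so none is given. The fits were tested on simulated data.

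Replicate numbers were taken to pair libraries where every correlation of deviations from the group means was over 0.1, as in MDA-MB-231 (0.74, 0.62, 0.72) and MDA-MB-468 (0.71, 0.61, 0.13), although control 2 correlated with NAM 3 at 0.69 in the former and control 3 with NAM 2 at 0.44 in the latter, while BT20 had 0.02, -0.08 and 0.10. The rule named every member called with NAM or by the interaction, or differing by at least 2 on the log2 scale between controls, with values per library, the other members by means or ranges, and of the other lists up to 3 called genes per direction and line with the largest fold change. Alternatives were another pseudocount, no filter, other scalings, limma-voom on recovered reads, a fold threshold, the replicate block and libraries left out. The members and lists were chosen with earlier results of these data known.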

Additional observations from a re-analysis of the deposited data

Results flagged for a closer look

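For 7 members the interaction of line and treatment passed. The adjusted p of limma were 0.00608 for GSR, 0.00742 for GPX3, 0.00847 for FTH1, 0.0148 for PGD, 0.034 for AKR1C3, 0.041 for CAT and 0.0468 for TKT. GPX3 entered this test through MDA-MB-231 alone and was below 0.7 FPKM in the other lines, so its value is no comparison of responses. GSR, PGD, AKR1C3 and CAT were higher with NAM in all 3 libraries of MDA-MB-231 than in any of its controls, and their log2 fold changes in the other lines were between -0.37 and 0.19. FTH1 had log2 fold changes of 0.42 in MDA-MB-231, -0.46 in MDA-MB-468 and 0.59 in BT20. Groups of 3 libraries are too small for a test of single libraries that stand apart.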

How the results depend on the processing

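The log2 fold changes of members called with NAM kept their sign under every alternative run, as did called control differences of at least 2. With the replicate block, BT20 had 2 members lower (GPX2 and AKR1C2, adjusted p = 0.0212 and 0.0299, where the numbers pair nothing), MDA-MB-468 7 higher and 6 lower, MDA-MB-231 13 higher, and 12 passed the interaction. Without replicate 1 of every group, 6 were higher in BT20, 2 higher and 3 lower in MDA-MB-468, 14 higher in MDA-MB-231, and 12 passed the interaction. Of all 14239 genes tested in BT20 in that way, 1598 were higher, and the all-gene counts of the others are given above. The block called 1410 of all 14965 genes lower in BT20. A pseudocount of 0.1 left 0 lower in MDA-MB-468, 0 higher in MDA-MB-231 and 4 with an interaction, beside 774, 130 and 1370 over all genes. Without a filter MDA-MB-468 had 1 higher and 2 lower, beside 647 and 916 of all 33134 genes. Equal medians gave 2 lower in MDA-MB-468, 0 higher in MDA-MB-231 and 2 interactions, beside 749, 60 and 1207 over all genes. No quantile normalization gave 4 interactions (1701 over all genes). Limma-voom gave 2 lower in MDA-MB-468 (778 over all genes) and 4 interactions (1203).

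Leaving out 1 library at a time gave 1 to 5 members higher and 0 to 2 lower in BT20, 0 to 1 higher and 0 to 1 lower in MDA-MB-468, 0 higher in MDA-MB-231 each time, and 4 to 8 with an interaction. In MDA-MB-231 no gene at all was called on leaving out replicate 2 or replicate 3 of either group. Between controls the 6 counts stayed within 1.5 times the reported ones under all alternatives run. The cause of these shifts was not tested. With NAM in MDA-MB-231 the split of all called genes was 115 higher and 151 lower, and 171 and 118 without quantile normalization. At 1 to 3 reads per library (GSTP1 in BT20, GPX2 in MDA-MB-231) depth limits the ratios to the intervals given.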
